A study of Mus musculus with 4 samples.

Results

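The ATP-binding cassette (ABC) transporter genes of the mouse colon were examined in surface and crypt cells after feeding with or without heme. The members are the genes whose current symbol begins with Abc, a letter from a to g and a digit, and that have a probe set carrying a single gene symbol. This gave 48 genes on 49 probe sets, out of 19938 genes measured. Abcb5 had a pair of probe sets, which were averaged, and each other member had 1. No probe set with several symbols named a member.

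The animals were male C57BL/6 mice, 11 weeks old, on a diet high in fat (40% of energy) and low in calcium for 14 days. The 4 groups were heme surface, control surface, heme crypt and control crypt. The heme diet contained 0.5 µmol heme per gram and the control diet contained none, and surface and crypt cells were cut from frozen colon by laser capture microdissection. RNA from 3 heme-fed mice or from 4 control mice was pooled within each compartment, and each pool was hybridised to 1 array. For each diet, both pools were taken from the same animals.

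With 1 array per group there are no replicates, and so the differences are given with no test, p-value or SD. Values are log2 expression values, and a difference of 1 is 2-fold. A gene is called higher or lower when it differed at least 2-fold and at least 1 of the compared arrays reached 5.75, which is the median over all genes and arrays and is called the floor here. Values below this floor may be background, so a difference from such a value is uncertain in size. Differences of at least 2-fold from such a value are also given on an offset scale, with 32 added to the unlogged value before log2 is taken, which damps low values. In pooled tissue, fewer cells of a type and less RNA per cell cannot be told apart.

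ABC transporters use the energy of ATP to move substrates across membranes. Several members of the C subfamily, though not all, pump glutathione, glucuronide and sulfate conjugates out of cells, the last stage of detoxification after conjugating enzymes have acted. P-glycoprotein, encoded in the mouse by Abcb1a and Abcb1b, and the breast cancer resistance protein encoded by Abcg2 expel drugs and plant toxins at the luminal membrane of the gut. ABCG5 and ABCG8 form an obligate heterodimer that returns plant sterols and cholesterol to the lumen, while ABCA1 and ABCG1 pass cholesterol to lipoproteins. Other members sit in mitochondria, peroxisomes or lysosomes, and the E and F subfamilies have no membrane domain and act in translation.

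The promoter windows of Abcc2 and Abcc4, the members with the largest heme differences upward, and of Abcg5, the member with the largest downward, are shown because the report turns on these genes. They run from 250 bases before to 50 bases after the annotated start, 5′ to 3′ on the gene's strand, from RefSeq on GRCm38.p6. In the Abcc2 and Abcc4 windows, capitals mark matches to the antioxidant response element core TGACNNNGC, which is the sequence bound by NRF2, or to the nuclear receptor hexamer AGGTCA. In the Abcg5 window, capitals mark the 109 bases that lie between the start of Abcg5 and a start of Abcg8, which is transcribed the other way.
Abcc2, chr19:43782058-43782357, plus strand: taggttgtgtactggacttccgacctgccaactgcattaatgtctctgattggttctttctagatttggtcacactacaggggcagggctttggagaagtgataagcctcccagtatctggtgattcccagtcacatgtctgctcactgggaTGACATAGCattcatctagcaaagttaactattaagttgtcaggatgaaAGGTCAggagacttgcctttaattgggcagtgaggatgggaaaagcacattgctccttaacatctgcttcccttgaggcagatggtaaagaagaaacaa
Abcc4, chr14:118706170-118706469, minus strand: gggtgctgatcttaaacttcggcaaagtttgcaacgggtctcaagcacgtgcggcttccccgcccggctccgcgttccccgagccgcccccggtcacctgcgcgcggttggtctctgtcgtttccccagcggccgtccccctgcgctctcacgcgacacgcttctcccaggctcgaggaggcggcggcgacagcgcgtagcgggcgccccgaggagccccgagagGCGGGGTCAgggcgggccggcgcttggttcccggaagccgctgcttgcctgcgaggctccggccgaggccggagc
Abcc4, second annotated start, chr14:118676882-118677181, minus strand: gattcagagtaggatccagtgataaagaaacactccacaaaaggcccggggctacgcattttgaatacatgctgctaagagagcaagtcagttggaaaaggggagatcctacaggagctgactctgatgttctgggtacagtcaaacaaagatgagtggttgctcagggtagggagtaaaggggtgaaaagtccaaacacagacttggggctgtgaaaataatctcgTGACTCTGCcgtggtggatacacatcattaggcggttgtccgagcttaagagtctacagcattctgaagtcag
Abcg5, chr17:84682962-84683261, minus strand: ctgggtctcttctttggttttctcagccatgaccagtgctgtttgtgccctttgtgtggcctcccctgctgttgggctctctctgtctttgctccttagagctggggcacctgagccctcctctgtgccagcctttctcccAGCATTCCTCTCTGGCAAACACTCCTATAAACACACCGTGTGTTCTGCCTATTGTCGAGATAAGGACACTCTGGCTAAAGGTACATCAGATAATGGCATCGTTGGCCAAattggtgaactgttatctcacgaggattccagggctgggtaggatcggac

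The search covered both strands of 32851 windows of 300 bases, of which 45 belonged to 38 members. The remaining members, among them Abcc1 and Abcc3, had no window and were not searched. The antioxidant response element core occurred in 12.4% of all windows and in 7 of the 45 (15.6%). These were the windows of Abcc2, both of Abcc4, both of Abcc10, and those of Abcb1a and Abca8b. The hexamer AGGTCA was present in 16.3% of all windows and in 7 of the 45, including that of Abcc2, and in Abcc10 a hexamer shares letters with a core match. The AP-1 sequence TGANTCA, held by 7.81% of all windows, was in no member window. The DR4 element, a direct repeat of this hexamer with a spacer of 4 bases that LXR binds, was in 5 of all windows and in no member window. The GC box GGGCGG was present in 35.7% of all windows and 46.7% of member windows, and the TATA box TATAAA in 13.6% and 15.6%. One TATA box lay in the 209 bases that the windows of Abcg5 and Abcg8 share, and the annotation lists a further start of Abcg8 6709 bases from that of Abcg5. These matches describe letters in a window and say nothing about binding.

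The dissected pools carried the markers of their labels. All 8 surface colonocyte markers were called higher in surface cells than in crypt cells on both diets, and all 6 pan-epithelial markers were above the floor on the 4 arrays. Of 8 markers of crypt base and dividing cells, 7 were called lower in surface cells than in crypt cells on heme and 8 on control. In crypt cells, 3 of these 8 lay above 0 on heme and 5 below, with Ccna2 (1.51) called higher and Lgr5 (-1.07) lower. Markers of other cells were present too. The mean log2 level of 11 stroma and smooth muscle markers was 7.81 in heme surface and 8.16 in control surface cells, and 7.74 in heme crypt and 8.60 in control crypt cells. For 9 leukocyte markers it was 6.78 in heme surface and 6.74 in control surface cells, and 6.24 in heme crypt and 6.67 in control crypt cells. For 5 endothelial markers it was 7.67 in heme surface and 7.76 in control surface cells, and 6.30 in heme crypt and 7.05 in control crypt cells. The B cell marker Cd79a was below the floor on all 4 arrays, and the fibroblast marker Lum on all but control crypt. For 4 tuft cell markers the mean was 5.62 in heme surface and 6.63 in control surface cells, and 5.78 in heme crypt and 6.35 in control crypt cells. The 8 surface colonocyte markers themselves averaged 8.69 in heme crypt cells against 7.74 in control crypt cells, and 12.23 in heme surface against 12.24 in control surface cells. The part of these shifts in the values of the ABC genes was not tested.

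Of the 48 members, 31 reached the floor on at least 1 array, 20 did so on all 4, and 17 stayed below it throughout. In surface cells, 6 members were called higher on heme and 2 lower, among 28 with a compared array at or above the floor. The background over all genes was 3.62% higher and 2.01% lower. The median difference of all 48 members was 0.03, against -0.04 for all genes, so the calls came from a minority of the family. In crypt cells, 0 members were called higher and 1 lower of 25, where 1.78% and 1.19% of all genes were called, and the member median was -0.01, against 0.01 for all genes. With each array centred on ribosomal protein genes, the all-gene median for crypt cells was 0.15, and the split of members was 1 higher and 0 lower.

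Of the 6 members higher on heme in surface cells, 5 belong to conjugate and drug export, and both members that were lower belong to sterol export. Of 9 conjugate and drug exporters, 5 were called higher, none lower and 7 lay above 0, with a median of 1.03. Over all genes, 3.62% were called higher and 2.01% lower. Abcc6, Abcc8, Abcc9 and Abcc12 of the C subfamily were not placed in this role. In surface cells, Abcc6 differed by -0.38 and Abcc9 by 0.57 on heme, while Abcc8 and Abcc12 were below the floor. Of 5 sterol exporters, 2 were called lower and 4 lay below 0, with a median of -0.58. In crypt cells, the medians were 0.44 and -0.41, with no call in either role.

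Abcc2 encodes the luminal pump for glutathione and glucuronide conjugates. Its level was 10.30 in heme surface cells, against 5.87 in control surface cells, and 5.62 in heme crypt cells, against 4.80 in control crypt cells. The heme surface array stood apart from the other 3, of which the control surface value was just above the floor and both crypt values were below it. The difference on heme was 4.42 in surface cells (21.5-fold) and 0.82 in crypt cells. On the offset scale these were 3.83 and 0.44. Surface exceeded crypt by 4.67 on heme and by 1.07 on control. On the offset scale these were 3.99 and 0.59, the second no longer a call.

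Abcc4 encodes a pump for cyclic nucleotides, prostaglandins and conjugated steroids. It was at 11.10 in heme surface cells, against 7.17 in control surface cells, and at 8.75 in heme crypt cells, against 7.83 in control crypt cells. All 4 values were above the floor, both heme values exceeded both control values, and the difference was 3.93 in surface cells (15.3-fold) and 0.93 in crypt cells (1.90-fold). The compartment order differed between the diets, with surface above crypt on heme by 2.35 and a surface minus crypt value of -0.66 on control. The sign on control turned with the scaling, since centring on ribosomal protein genes made the values 3.51 on heme and 0.57 on control.

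Abcc5 and Abcc1 were also called higher on heme in surface cells. Abcc5, an exporter of cyclic nucleotides, was at 7.88 in heme surface and 6.18 in control surface cells, and at 5.53 in heme crypt and 5.93 in control crypt cells. Its heme difference was 1.69 in surface cells and -0.40 in crypt cells, so the compartments moved in opposite directions, although the heme crypt value lay below the floor. Surface exceeded crypt by 2.35 on heme, a call that was 1.77 on the offset scale, and by 0.25 on control. Abcc1, which exports glutathione conjugates, had 9.22 in heme surface and 7.77 in control surface cells, a difference of 1.44. In crypt cells it had 8.03 on heme and 7.88 on control, a difference of 0.15. Its surface minus crypt value was 1.18 on heme, a call, and -0.11 on control. After ribosomal protein centring the value on control was 1.12.

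Abcg2 and Abcc3 were surface genes on either diet. Abcg2, whose product exports sulfate conjugates and porphyrins, was at 10.96 in heme surface and 9.93 in control surface cells, against 7.16 in heme crypt and 6.66 in control crypt cells. It was 3.80 higher in surface cells than in crypt cells on heme and 3.27 higher on control. Its heme difference in surface cells was 1.03, just past the 2-fold rule, and cyclic loess scaling took it below that rule (0.97). Abcc3, the basolateral conjugate pump, had 11.51 in heme surface and 10.52 in control surface cells, and 9.10 in heme crypt and 8.66 in control crypt cells. Its heme difference in surface cells was 0.99 (1.99-fold) and so missed the rule, while after ribosomal protein centring it was 1.06 and passed. Its surface excess over crypt was 2.41 on heme and 1.85 on control.

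The P-glycoprotein genes had no call on heme against control in either compartment. Abcb1a was at 12.91 in heme surface and 12.62 in control surface cells, and at 10.51 in heme crypt and 10.40 in control crypt cells. It was 2.40 higher in surface cells than in crypt cells on heme and 2.22 on control, while its heme differences were 0.29 in surface and 0.11 in crypt cells. Abcb1b had 5.44 in heme surface and 6.18 in control surface cells, and 4.69 in heme crypt and 4.06 in control crypt cells. Only the control surface value reached the floor, and the heme differences were -0.74 in surface and 0.63 in crypt cells. On control it was 2.11 higher in surface cells, and 1.10 on the offset scale. Abcb1a and Abcb1b are close paralogs whose probes could share signal, so the split between them is uncertain. Abcc10, another drug exporter, differed by -0.52 in surface and -0.41 in crypt cells.

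**Figure D1:**
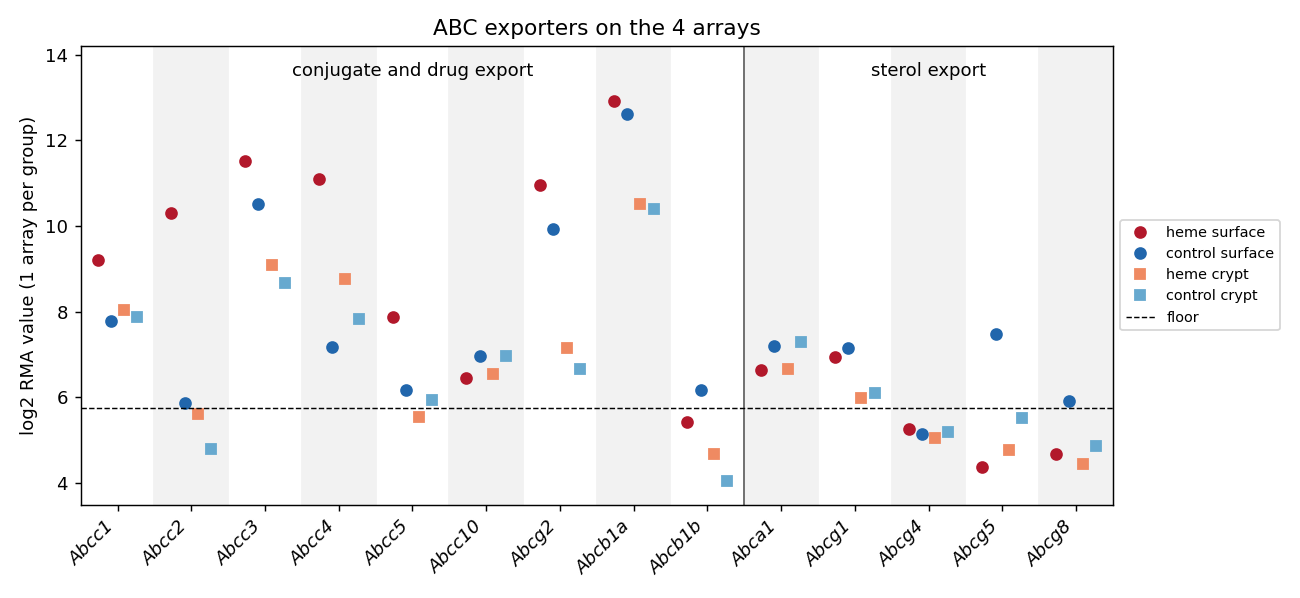
The y axis gives log2 RMA values of the 9 conjugate and drug exporters and 5 sterol exporters, with 1 point for each of the 4 arrays and a dashed line at the floor of 5.75. For Abcc2 and Abcc4 the heme surface point stands far above the other 3, and for Abcg5 the control surface point does.

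Abcg5 showed the reverse of Abcc2 among the surface arrays. Its level was 4.39 in heme surface cells, against 7.47 in control surface cells, and 4.78 in heme crypt cells, against 5.53 in control crypt cells. The control surface array was the 1 array above the floor, and the difference on heme was -3.08 in surface cells (8.47-fold lower) and -0.74 in crypt cells. Because the heme value lay below the floor, the size is uncertain, and on the offset scale the surface difference was -1.98. On the control diet Abcg5 was 1.94 higher in surface cells than in crypt cells, or 1.42 on the offset scale. On heme the surface minus crypt value was -0.40, and 0.76 after ribosomal protein centring.

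Abcg8, the partner of Abcg5 in the heterodimer, had 4.68 in heme surface and 5.92 in control surface cells, and 4.45 in heme crypt and 4.87 in control crypt cells. As for Abcg5, the control surface array alone reached the floor. The difference on heme was -1.24 in surface cells and -0.41 in crypt cells, and on the offset scale the surface difference was -0.69, which does not pass the rule. On control it was 1.06 higher in surface cells, and 0.60 on the offset scale, no longer a call. The start sites shown above place both genes head to head, 110 bases apart.

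The other cholesterol exporters differed less. Abca1, which loads cholesterol onto apolipoprotein A-I, was at 6.63 in heme surface and 7.21 in control surface cells, and at 6.66 in heme crypt and 7.28 in control crypt cells. Its differences on heme were -0.58 in surface and -0.62 in crypt cells, and neither passed the rule. Abcg1 had 6.95 in heme surface and 7.15 in control surface cells, and 6.00 in heme crypt and 6.11 in control crypt cells. It was called higher in surface cells than in crypt cells on control (1.04) and missed the rule on heme (0.95). These calls moved with the processing: on the offset scale the control value was 0.78, no call, and with cyclic loess the heme value was 1.06, a call. Abcg4 stayed below the floor on all 4 arrays.

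Mitochondrial members lay above 0 on heme in both compartments, without a call. Abcb6, reported as a porphyrin transporter, was at 8.99 in heme surface and 8.40 in control surface cells, and at 7.78 in heme crypt and 7.20 in control crypt cells. Its difference on heme was 0.59 in surface and 0.58 in crypt cells, and it was 1.21 higher in surface cells than in crypt cells on heme and 1.20 on control. Abcb10, which supports heme synthesis in red cell precursors, differed by 0.49 in surface and 0.57 in crypt cells. Abcb8, of the inner mitochondrial membrane, differed by 0.45 and 0.30. The median of the 3 genes was 0.49 in surface and 0.57 in crypt cells.

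Abcd3, which carries fatty acids and bile acid intermediates into peroxisomes, was also a member called higher on heme in surface cells. It was at 11.57 in heme surface and 10.42 in control surface cells, and at 10.07 in heme crypt and 9.75 in control crypt cells. The difference on heme was 1.15 in surface cells (2.21-fold) and 0.31 in crypt cells, with all 4 values above the floor. Surface exceeded crypt 2.83-fold on heme, a call, and 1.58-fold on control. The lysosomal members Abcd4, which moves cobalamin, and Abcb9, a peptide transporter, differed on heme by 0.19 and 0.35 in surface cells and by 0.13 and -0.20 in crypt cells.

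**Figure D2:**
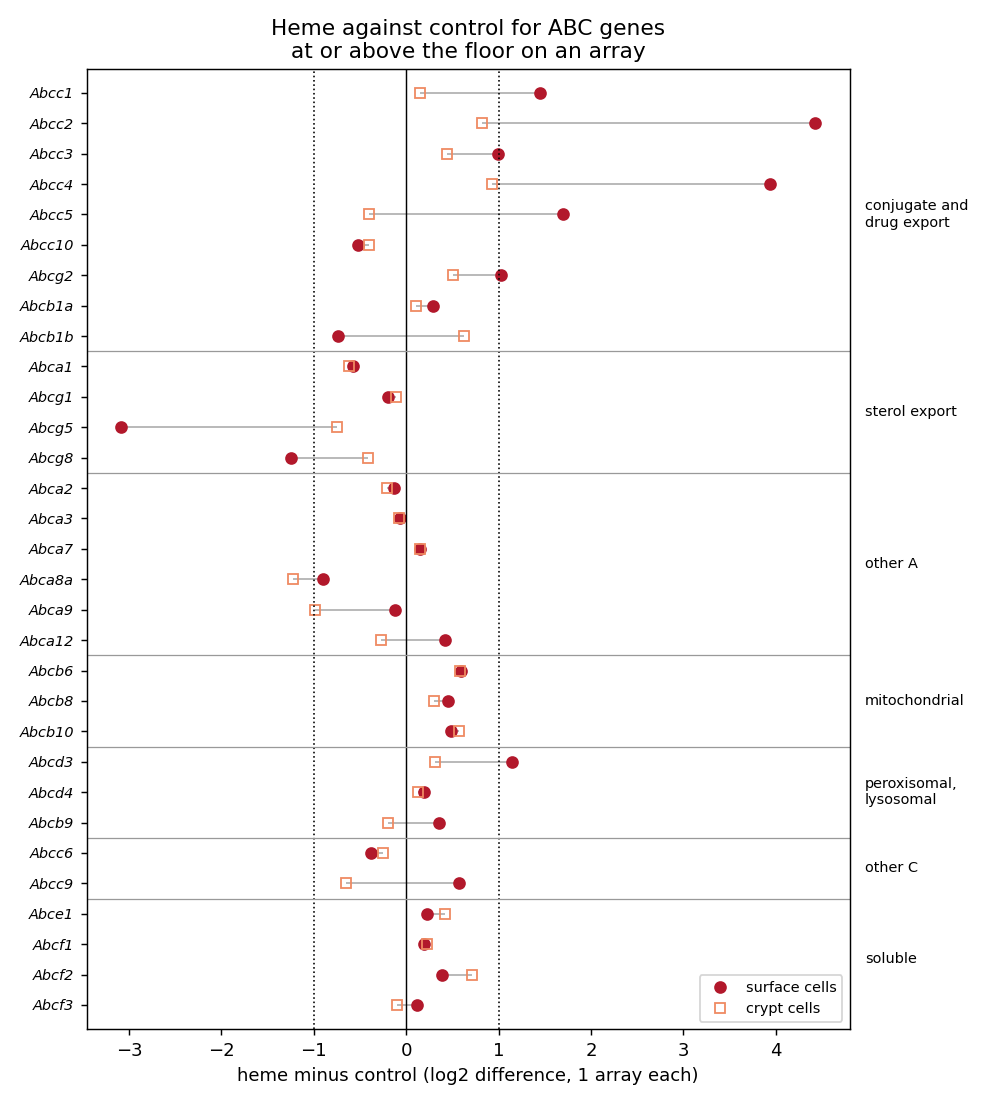
The x axis gives the heme minus control difference of log2 values, with filled circles for surface cells and open squares for crypt cells, for the 31 members that reached the floor on an array. Dotted lines mark 2-fold; 6 circles lie to the right of them and 2 to the left, while 1 square, Abca8a, lies outside them.

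In the A subfamily, Abca12 and Abca7 were higher in surface cells on both diets. Abca12, known for lipid transport in skin keratinocytes, had 8.05 in heme surface and 7.62 in control surface cells, and 4.17 in heme crypt and 4.45 in control crypt cells. Both surface values were above the floor and both crypt values below it, and surface exceeded crypt by 3.88 on heme and 3.18 on control. On the offset scale these were 2.57 and 2.09. Abca7, a phospholipid transporter, was at 8.40 in heme surface and 8.25 in control surface cells, and at 6.96 in heme crypt and 6.81 in control crypt cells. Its surface excess was 1.44 on either diet, and heme moved it by 0.15 in each compartment.

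Abca8a was the 1 member called lower on heme in crypt cells. It was at 5.06 in heme crypt and 6.29 in control crypt cells, a difference of -1.23, and at 4.06 in heme surface and 4.96 in control surface cells, a difference of -0.90. Surface minus crypt was -1.33 on control, a call, while on heme both values were below the floor. The control crypt array alone reached the floor. On the offset scale the heme difference in crypt cells was -0.75 and surface minus crypt on control was -0.81, and neither was then a call. Its neighbour in the genome, Abca9, had 5.10 in heme crypt and 6.08 in control crypt cells, a difference of -0.99, and -0.13 in surface cells. In the same crypt pools, all 11 stroma and smooth muscle markers lay below 0 on heme, with a median of -0.72 and 3 called lower. All 5 endothelial markers and 7 of 9 leukocyte markers were below 0 as well, with medians of -0.68 and -0.62. The part of these cells in the values of Abca8a and Abca9 was not tested.

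Abcc9, the sulfonylurea receptor subunit of potassium channels in muscle and pericytes, moved in opposite directions in the compartments. It was at 7.46 in heme surface and 6.89 in control surface cells, and at 6.19 in heme crypt and 6.84 in control crypt cells. The heme differences were 0.57 and -0.66, neither a call, and on heme it was 1.28 higher in surface cells than in crypt cells, against 0.05 on control. Of the 11 stroma and smooth muscle markers, 10 had a larger heme difference in surface than in crypt cells (median 0.45), and the part of these cells was not tested.

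Across the family, 12 members were called higher in surface cells than in crypt cells on heme and 1 lower, of 26, where 15.3% and 16.5% of all genes were called. On control, 11 were called higher and 2 lower, of 31, where 12% and 13.5% of all genes were called. The median difference of all 48 members was 0.23 on heme and 0.24 on control, against 0.00 and 0.06 for all genes. Of the 9 conjugate and drug exporters, 7 were called higher in surface cells on heme and 5 on control, with medians of 2.35 and 1.07. Centring on ribosomal protein genes, which were themselves lower in surface cells, put the median of all genes at 1.16 on heme and 1.29 on control. The splits were then 26 higher and 1 lower on heme and 25 higher and 0 lower on control.

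The soluble members lay on the crypt side as the arrays were scaled by the authors. Abce1, needed for ribosome recycling, was at 7.88 in heme surface and 7.65 in control surface cells, against 10.13 in heme crypt and 9.71 in control crypt cells. The difference was -2.24 on heme and -2.06 on control, and after ribosomal protein centring it was -1.08 on heme, still a call, and -0.83 on control, no longer one. Abcf1, Abcf2 and Abcf3, linked to translation or its control, differed between compartments by -0.48, -0.99 and -0.16 on heme and by -0.45, -0.67 and -0.37 on control. After ribosomal protein centring, all 3 lay above 0. On heme against control, the 4 soluble genes had medians of 0.21 in surface and 0.32 in crypt cells, with no call.

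**Figure D3:**
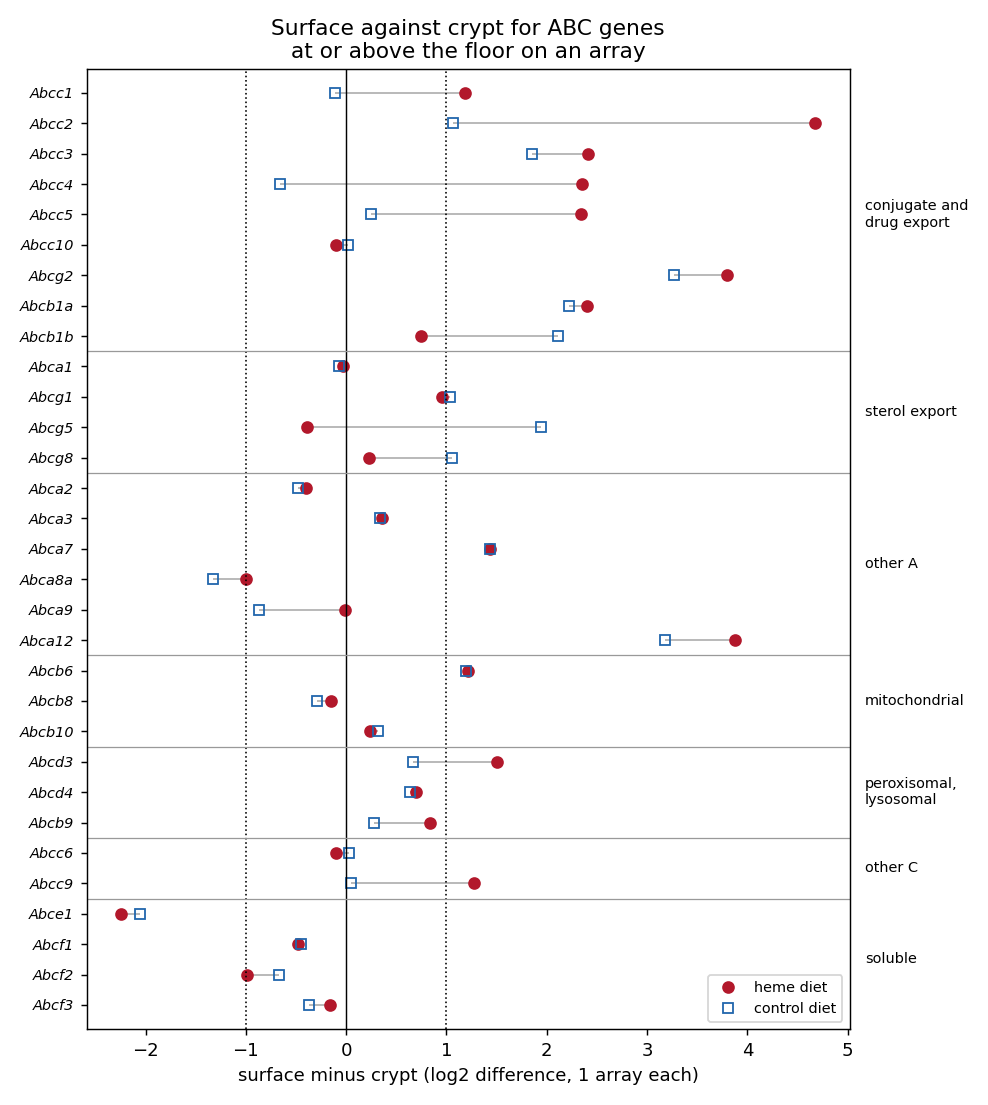
The x axis gives the surface minus crypt difference of log2 values, with filled circles for the heme diet and open squares for the control diet, for the 31 members that reached the floor on an array. Abcg2 and Abca12 lie far to the right on both diets, Abcc4 changes sides between them at this scaling but not after ribosomal protein centring, and Abce1 lies to the left on both.

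The heme difference in surface cells was set against that in crypt cells by subtraction. It was called higher in 5 members and lower in 2, of 31, where 3.29% and 2.17% of all genes were called. The higher ones were Abcc2 (3.61), Abcc4 (3.01), Abcc5 (2.09), Abcc1 (1.29) and Abcc9 (1.23), all of the C subfamily. The lower ones were Abcg5 (-2.34) and Abcb1b (-1.37). On the offset scale, Abcc2 was at 3.39, Abcc5 at 1.60 and Abcg5 at -1.59. These are differences between 4 single arrays and were not tested. On the offset scale, Abcc9 (0.95) and Abcb1b (-0.72) no longer passed the rule.

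The remaining members were below the floor throughout or were called in no comparison. Those below the floor on all 4 arrays were Abcg4, Abcb4, Abcb11, Abca4, Abca5, Abca6, Abca8b, Abca13, Abca14, Abca15, Abca16, Abca17, Abcd2, Abcc8, Abcc12, Abcb5 and Abcg3, with values between 2.86 and 5.71. They include the canalicular bile salt pump gene Abcb11 and the phosphatidylcholine translocator gene Abcb4, which act in liver. The 13 members that reached the floor and were called in no comparison had differences between -0.99 and 0.86. They were Abcc10, Abca1, Abca2, Abca3, Abca9, Abcb8, Abcb10, Abcd4, Abcb9, Abcc6 and the 3 genes of the F subfamily.

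By subfamily, heme calls in surface cells were counted among genes with a surface array at or above the floor. They were 4 higher of 8 C genes, 1 higher and 2 lower of 4 G genes, and 1 higher of 2 D genes. The 4 A genes, 6 B genes, 3 F genes and Abce1 that reached it had none. Over all genes, 3.62% were called higher and 2.01% lower. The medians, over all 10 C, 6 G and 16 A genes, were 0.78 for C, -0.04 for G and -0.06 for A. In crypt cells the C genes had a median of 0.18. Another 3 genes of the same superfamily carry other names. Tap1 and Tap2, the peptide transporter subunits of antigen presentation, differed by -1.09 and -1.05 on heme in surface cells, both calls. The heme surface value of Tap1 was below the floor (5.67). On the offset scale the differences were -0.76 and -0.86, and neither was then a call. Cftr, the chloride channel, differed by 0.13 in log2 value on heme in surface cells. Between surface and crypt cells Cftr differed by -1.76 on heme and -2.05 on control.

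Genes that make or attach glutathione, the substrate partner of the conjugate pumps, were called higher on heme in surface cells in 13 of 13 cases. Over all genes the share was 3.62%. The median of this list, which was chosen with earlier results of these data known, was 1.80. Among the 13 were Gclc (3.29) and Gclm (2.66), the subunits of the enzyme that limits glutathione synthesis. Another was Slc7a11 (6.05), a cystine importer whose control surface value was below the floor and whose difference was 4.64 on the offset scale. In crypt cells, 4 of the 13 were called higher, where 1.78% of all genes were, and the median was 0.76. None of 8 transcription factors of exporter genes was called on heme in either compartment. Over all genes, 3.62% were called higher and 2.01% lower in surface cells, and 1.78% and 1.19% in crypt cells. No call among 8 genes is near these shares. In surface cells 6 of the 8 lay below 0, with a median of -0.16, and Ppara was furthest at -0.67. Nfe2l2, which encodes NRF2, differed by -0.16 in surface and 0.06 in crypt cells. Of 11 genes of LXR signalling and sterol handling, Lpcat3 (1.41) was called higher on heme in surface cells and none lower. These counts are too small to set apart from the shares over all genes. Among the other targets of LXR, the sterol-sensing nuclear receptor, Mylip differed by -0.63 and Srebf1 by -0.13, and Nr1h3, which encodes LXR alpha, by 0.46.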

How the data were processed

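Log2 expression values of probe sets were deposited by the authors, who used RMA per the submitters' processing notes. The arrays are Affymetrix whole-transcript arrays, labelled from 100 ng of pooled RNA per the labels' protocols. RMA corrects background, quantile-normalizes probes and summarises them per probe set. Its version, and which arrays it normalized jointly, is not given in the sources used here. No detection call was used. Medians of the 35556 probe sets lay between 5.42 and 5.54 on the 4 arrays. Gene names came from the platform annotation, and symbols were updated through gene identifiers to the GRCm38.p6 gene table, matching 21698 of 21789 single-symbol probe sets.

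Each gene is the mean of its single-symbol probe sets, and each of 5 comparisons is a difference of log2 values. The rule of size was tried on simulated data with planted differences larger than 2-fold, in genes above the floor. It was not tried on planted differences close to 2-fold or on values near the floor. With 1 array per group, precision is limited by how few arrays there are. The members, roles and lists were chosen with earlier results of these data known, so they are not independent evidence. All 4 values are printed for members called in any comparison, and others are named by role or list. Abca1, Abca9 and the single values of other uncalled members were added after their values were seen. So were Nfe2l2, Srebf1, Nr1h3, Nr1h4, Slc10a2, Slc51a, Ugdh, Sult1b1, Sult1d1, the named Ugt2b genes, Lgr5 and Ccna2. Of 122 other list genes, 9 lacked a probe set with a single symbol. The calculations used Python 3.11.15, numpy 2.4.6 and pandas 2.3.3. Figures were drawn with matplotlib 3.10.9, and limma 3.58.1 in R 4.3.3 gave the cyclic loess values. The alternatives were 2 other floors, 2 other folds, an offset of 32, 2 other scalings and the brightest probe set of a gene.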

Additional observations from a re-analysis of the deposited data

Results flagged for a closer look

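In all, 3 members are given again because heme moved them in opposite directions in the compartments and the heme differences were at least 2-fold apart. For Abcc5 the heme difference was 1.69 in surface and -0.40 in crypt cells, which are 2.09 apart. For Abcc9 it was 0.57 in surface and -0.66 in crypt cells, which are 1.23 apart. For Abcb1b it was -0.74 in surface and 0.63 in crypt cells, a difference between compartments of -1.37, with 3 of its 4 values below the floor. None of these differences was tested, since each rests on 1 array per group.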

How the results depend on the processing

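No paired analysis was possible because each group holds 1 array. The 10 counts of members (5 comparisons, each direction) were recomputed under 8 alternatives, and 54 values were within 1.5 times the count reported while 26 were not. All 10 were so with no floor and with cyclic loess. The brightest probe set also left all 10 unchanged, and these are among the 54. This was no real check, since only Abcb5 had a pair of probe sets and both lay below the floor. The offset scale cannot turn the sign of a difference between a pair of arrays. Each called member has a single probe set, so the brightest probe set could not change its values. No called difference of a named member changed sign under either scaling, and no called difference of heme effects did on the offset scale. Uncalled differences did, among them the surface minus crypt values of Abcc4 (0.57) and Abcc1 (1.12) on control and of Abcg5 (0.76) on heme after ribosomal protein centring. With the floor raised by 1, and also on the offset scale, the members lower were 1 in surface cells on heme (without Abcg8) and 0 in crypt cells on heme (without Abca8a). They were 1 for surface against crypt on control (without Abca8a), and 1 for the difference of heme effects (without Abcb1b). Centring on 58 ribosomal protein genes gave 1 member higher (Abcc4) and 0 lower in crypt cells on heme. It gave 26 higher for surface against crypt on heme, and 25 higher and 0 lower on control. At 1.5-fold, crypt cells had 2 higher and 4 lower, surface against crypt had 2 lower on heme and 5 lower on control, and the difference of heme effects had 8 higher. At 3-fold, 3 were higher (Abcc2, Abcc4 and Abcc5) and 1 lower (Abcg5) on heme in surface cells, and 0 lower in crypt cells. Surface against crypt then had 7 higher on heme, and 6 higher and 1 lower on control, and the difference of heme effects had 3 higher and 1 lower. Fewer or more calls follow from the stricter or looser rules themselves; ribosomal protein centring shifts all genes by construction, and with it 7089 genes were higher and 318 lower on heme, and 7615 and 125 on control. Over all genes, the offset scale gave 123 lower in surface cells on heme, where 207 were called without it, and 106 higher and 52 lower in crypt cells, where 187 and 125 were. For surface against crypt on control it gave 914 lower, where 1464 were called, and for the difference of heme effects 234 higher and 125 lower, where 367 and 242 were.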

Other observations

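Genes of bile acid transport and sensing that reached the floor lay beside the conjugate exporters on the surface side. Of 7 genes of bile acid transport and sensing, 4 had a compared array at or above the floor on heme and 3 on control. All of these were called higher in surface cells than in crypt cells, where 15.3% of all genes were on heme and 12% on control. A gene below the floor in crypt cells enters these counts only through its surface array, so the counts partly follow from the rule. The sensing gene Nr1h4, above the floor on all 4 arrays, was 2.03 higher in surface cells on heme and 1.71 on control. Slc51a, called on heme, had a heme crypt value below the floor. Its surface excess on heme was 1.65, or 0.91 on the offset scale, no longer a call. Slc51b, which encodes a subunit of the basolateral bile acid exporter, was at 10.15 in heme surface and 8.76 in control surface cells. This difference of 1.40 was the 1 call for heme against control in this list. Slc51b was 3.88 higher in surface cells than in crypt cells on heme and 3.40 on control. Its control crypt value was below the floor (5.35), and on the offset scale the control difference was 2.67. Slc10a2, the apical bile acid importer gene, differed by 0.61 on heme in surface cells and was 4.00 higher in surface cells than in crypt cells on heme and 3.01 on control. Both of its crypt values were below the floor, and on the offset scale the differences were 2.59 on heme and 1.93 on control. Fabp6, Fgf15 and Nr0b2 stayed below the floor on all 4 arrays.

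Measured genes of glucuronidation and sulfation, which supply other substrates of conjugate pumps, did not move as a list with the glutathione genes. Of 12 listed, 10 had a probe set with a single symbol, and 8 reached the floor in surface cells and 9 in crypt cells. None was called higher on heme, where 3.62% of all genes were in surface cells and 1.78% in crypt cells, so for so few genes this is near those shares. Of the glucuronosyltransferase genes, Ugt2b36 was below the floor on all 4 arrays and Ugt2b35 on both surface arrays. In surface cells Ugt2b34 (0.28 on heme) was the only listed one that reached it. Sult1a1 and Sult1c2, both cytosolic sulfotransferase genes, were called lower in surface cells (-1.35 and -1.21) and in crypt cells (-1.87 and -1.89). Over all genes, 2.01% were called lower in surface cells and 1.19% in crypt cells. The other measured sulfotransferase genes of the list, Sult1b1 and Sult1d1, had no call. They differed on heme by 0.72 and 0.14 in surface cells and by 0.14 and -0.33 in crypt cells. Ugdh, which makes the glucuronate donor, differed by 0.57 in surface and 0.81 in crypt cells.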
